A study of Mus musculus with 14 samples.

Results

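The 60 genes described here are the class II odorant receptor genes of the mouse whose symbols run from Olfr1417 to Olfr1505. They were selected by name, as every symbol in both deposited tables made of Olfr and a plain number in that range. This choice was made with earlier results of these data known. The genes are 60 of 1116 plain-numbered receptor genes among 51211 symbols. In GENCODE vM21, on the GRCm38 build, all 60 are annotated as protein coding and all lie on chromosome 19, between chr19:11826803-13921866. RNA was measured in the olfactory epithelium of 14 mice at postnatal day 5, in 2 experiments. The Kir2.1 experiment compared 3 control mice, heterozygous for OMP-IRES-tTA, with 3 Kir2.1 mice that carry OMP-IRES-tTA together with tetO-Kir2.1-IRES-tauLacZ, so both groups carried the Omp-driven transactivator. Transgene expression is therefore limited to cells that use the Omp promoter, which are mostly mature sensory neurons. The PEA experiment compared 4 wild type control mice without exposure with 4 wild type mice exposed to the odor phenylethylamine (PEA) from day 0 to day 5. The labels give the C57BL/6 background for all mice, whereas the methods of the study name CD-1 pups for the odor exposure. The labels also call the Kir2.1 mice Kir2.1-off, a name that the study uses for animals fed doxycycline later.

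An odorant receptor is a seven-transmembrane protein of the sensory cilia that binds odorants and signals through the olfactory G protein. Each mature olfactory sensory neuron transcribes 1 allele of 1 receptor gene, so in whole tissue the RNA of a receptor gene follows both the number of neurons that chose it and the RNA each of them holds. These contributions cannot be told apart in bulk samples. Class II receptors make up most of the family in mammals, and their genes stand in clusters, each usually with its whole coding sequence in 1 exon. The odorants that bind most of these 60 receptors are not given in the sources used here, so the genes are described by position, sequence and level.

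Along the chromosome the genes formed 4 stretches parted by more than 100 kb without a member. The first held 4 genes (Olfr1417 to Olfr1420), the second 13 (Olfr1423 to Olfr1441), the third only the neighbours Olfr1442 and Olfr1443, and the fourth 41 (Olfr1444 to Olfr1505). The widest gaps were 246.9 kb, between Olfr1441 and Olfr1442, and 173.4 kb, between Olfr1443 and Olfr1444. Olfr1442 and Olfr1443 themselves were 0.8 kb apart on the same strand. Of the 60 genes, 33 lay on the plus strand and 27 on the minus strand. Annotated exon length ran from 924 to 11280 bases with a median of 2712, whereas coding length without the stop codon stayed between 921 and 1077 bases with a median of 942.

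The coding sequences shared 1 well-kept stretch early in the gene. The 30-base coding windows of Olfr1417, taken codon by codon, were each set against their best in-frame match in every gene. The window starting at coding base 160 had the closest matches over the 60 genes, Olfr1417 included. Its mean identity to Olfr1417 was 78.9%, against a median of 58.9% over all such windows. Capitals mark the 12 bases that were identical in all 60 genes, and the genes shown are ones whose values are given further on.
Olfr1417: tgtcTcCAcaccCCtATGTActtctTccTg
Olfr1443: cgacTcCAcactCCcATGTAcatttTtcTt
Olfr1447: cggcTcCAcaccCCcATGTAcatttTccTt
Olfr1465: tgtcTcCAcactCCcATGTActtttTtcTa
Olfr1477: agacTcCAcactCCcATGTActtttTccTc
Olfr1502: caacTcCAcatcCCaATGTActtctTtcTg
The window was present in 49 different versions among the 60 genes. It began between coding bases 154 and 289, the latter in Olfr1480, which had the longest coding sequence.

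Over the whole coding sequence the members were less alike, with a median identity of 56.3% over the 1770 pairs and a lowest value of 49.8%. At the other end, 10 pairs, made of 19 genes, were at least 95% identical. The 3 closest pairs are shown in the 60-base stretch where each pair differs most, with the differing bases in capitals, to show how far the coding sequences of partners part even there.
Olfr1502: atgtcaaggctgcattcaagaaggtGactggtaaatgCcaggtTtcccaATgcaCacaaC
Olfr1505: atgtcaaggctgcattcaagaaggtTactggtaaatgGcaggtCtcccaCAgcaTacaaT
Olfr1417: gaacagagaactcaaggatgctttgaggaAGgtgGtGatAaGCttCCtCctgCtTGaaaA
Olfr1418: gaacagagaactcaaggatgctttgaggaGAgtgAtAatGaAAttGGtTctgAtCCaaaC
Olfr1471: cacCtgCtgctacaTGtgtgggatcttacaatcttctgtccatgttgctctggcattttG
Olfr1474: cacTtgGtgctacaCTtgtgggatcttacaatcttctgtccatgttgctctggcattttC
Olfr1502 and Olfr1505 were 97.5% identical, with 24 differing bases, 7 of them in the stretch shown, and 1 run of 171 identical bases. Olfr1417 and Olfr1418 were 97.2% identical, and 14 of their 26 differing bases lay in the stretch shown, near the 3′ end of the coding sequence (coding bases 882 to 941). These sequences hold a run of 389 identical bases, longer than a read of either experiment. Olfr1471 and Olfr1474 were 97.1% identical, with 27 differing bases, 5 of them in the stretch shown. Whole transcripts were less alike than coding sequences, in that Olfr1417 shared 65.8% of its 40-base coding windows with other genes but 17.3% of the windows of its whole transcripts. Over full transcripts, 24 of the 60 genes shared more than 10% of their 40-base windows, the read length of the Kir2.1 experiment, with another annotated gene. Values of these genes are uncertain to the extent that the estimate of transcript abundance had to split such reads.

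For 56 of the 60 genes RefSeq (GRCm38.p6) gave a window from 250 bases before to 50 bases after its gene start. In only 9 of these did that start lie within 100 bases of the GENCODE 5′ end, and in only 4 of the 9 did the gene have more than 100 bases of exon outside its coding part. The upstream sequence of Olfr1443 and Olfr1477 is shown as far as the GENCODE 5′ end, since both are among the 10 genes with the smallest p in the Kir2.1 experiment and both have a start placed alike in both annotations. Capitals mark any match to CCCNNGGG, a motif of the Ebf factors, or to TAATTA or TAATGA, homeodomain motifs, on either strand.
Olfr1443, chr19:12677916-12678111, plus strand: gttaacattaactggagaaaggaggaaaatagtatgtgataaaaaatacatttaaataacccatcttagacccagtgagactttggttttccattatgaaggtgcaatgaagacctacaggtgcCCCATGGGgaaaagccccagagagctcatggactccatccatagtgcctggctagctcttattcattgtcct
Olfr1477, chr19:13500296-13500545, plus strand: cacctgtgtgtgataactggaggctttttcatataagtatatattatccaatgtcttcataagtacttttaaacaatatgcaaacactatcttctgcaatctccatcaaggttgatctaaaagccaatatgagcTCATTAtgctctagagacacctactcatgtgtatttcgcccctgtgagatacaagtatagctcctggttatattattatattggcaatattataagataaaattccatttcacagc
Olfr1443 had 1 match to CCCNNGGG, and Olfr1477 had 1 to TAATGA. Over all member windows, CCCNNGGG was present in 1 of 56 (1.8%), compared with 3.1% of 944 odorant receptor windows and 13.7% of all 32851 windows. TAATTA was present in 23.2% of member windows, in 18.6% of receptor windows and in 5.3% of all windows. TAATGA was present in 33.9%, 28.8% and 9.8%. TAATTA and TAATGA can overlap each other where one follows the other in a run. A match is no evidence of binding, and for most member windows the RefSeq start lay more than 100 bases from the GENCODE 5′ end. That distance was not computed for the other receptor windows.

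The values are normalized read counts per gene and mouse. All 14 libraries had sums over all genes after normalization of 33049100 to 34198500 (Kir2.1 experiment) or 11476100 to 12467300 (PEA experiment). Kcnj2, the gene that encodes Kir2.1, was at 985.9, 1074 and 1274 in the controls and at 17926, 18530 and 24193 in the Kir2.1 mice. It was thus higher in each Kir2.1 mouse than in each control of the Kir2.1 experiment. In the PEA experiment Kcnj2 overlapped between groups, at 914 to 1372 in controls and 812 to 1110.5 in exposed mice. No gene was taken there as a check of the exposure. The mature neuron marker Omp was high in all mice, from 6087 to 36226. Kir2.1 control 1 stood apart in vomeronasal receptor genes, whose mean on the log2 scale was 6.06 there and 2.42 to 2.51 in the other 5 mice. The vomeronasal mean also differed among the PEA mice, where it was 3.92 to 5.77 in controls 1 to 3, 5.32 in exposed mouse 1 and 1.43 to 1.71 in the other 4. PEA control 4 stood apart in the receptor genes themselves, as given with the PEA results.

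Every member was detected in at least 1 mouse of each experiment. In the Kir2.1 experiment 2 members, Olfr1436 and Olfr1475, were listed at 0 in at least 1 mouse, and in the PEA experiment 4 were. Levels between genes were compared per kb of annotated exon. On that scale the control mice of the Kir2.1 experiment gave a median of 14.8 normalized counts per kb over the 60 genes, from 1.36 to 70.2, and 16.4 over the 1046 other receptor genes with an exon length. In the PEA controls the median was 11.6, from 0.851 to 26.8, and 9.64 over the other receptors. The members thus lay in the middle of the family, and none came near its most abundant genes, which reached 387 per kb in the Kir2.1 controls and 117 in the PEA controls.

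Olfr1447 led the Kir2.1 controls with 70.2 ± 21.7 normalized counts per kb (SD, n = 3). Its next neighbours in the order were Olfr1446 at 40.1 ± 16.0, Olfr1428 at 37.6 ± 5.61, Olfr1442 at 32.8 ± 13.3 and Olfr1437 at 31.9 ± 7.09. The lowest control value of Olfr1447, 51.1 per kb, lay above every control value of Olfr1428, Olfr1442 and Olfr1437 but within the range of Olfr1446, which reached 58.5. These 2 genes are neighbours and 95.6% identical in coding sequence. Olfr1446, Olfr1428, Olfr1442 and Olfr1437 overlapped one another and did not differ beyond their spread. The order was another one in the PEA controls, where Olfr1491 was highest at 26.8 ± 8.28 per kb (SD, n = 4), followed by Olfr1443 at 24.9 ± 6.49, Olfr1427 at 24 ± 5.02, Olfr1420 at 23.4 ± 5.82 and Olfr1496 at 21.4 ± 6.82. All 5 overlapped. Over the 60 genes the control levels of the 2 experiments had a Spearman correlation of 0.581, a description across genes that share the same exon lengths and differ in library type.

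Of the 6 members with means under 10 in the Kir2.1 experiment, 3 were annotated with little beyond a coding exon, and of the 8 in the PEA experiment, 5 were. Olfr1436, Olfr1445, Olfr1453, Olfr1475 and Olfr1502 had under 100 bases of exon outside the coding part, and their control means were 1.29 to 11.03 normalized counts in the Kir2.1 experiment and 0.804 to 9.09 in the PEA experiment. The other 55 genes had control medians of 48.7 and 31.8, but some of them were as low, with Olfr1480 at 4.68 and Olfr1499 at 6.31 in the Kir2.1 controls. Per kb of exon the difference was smaller, with medians of 8.66 against 15.8 and of 4.89 against 12.3. Across the 60 genes the level was higher with longer exons (Spearman 0.632 and 0.612), and the level per kb had coefficients of 0.092 and 0.034.

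**Figure D1:**
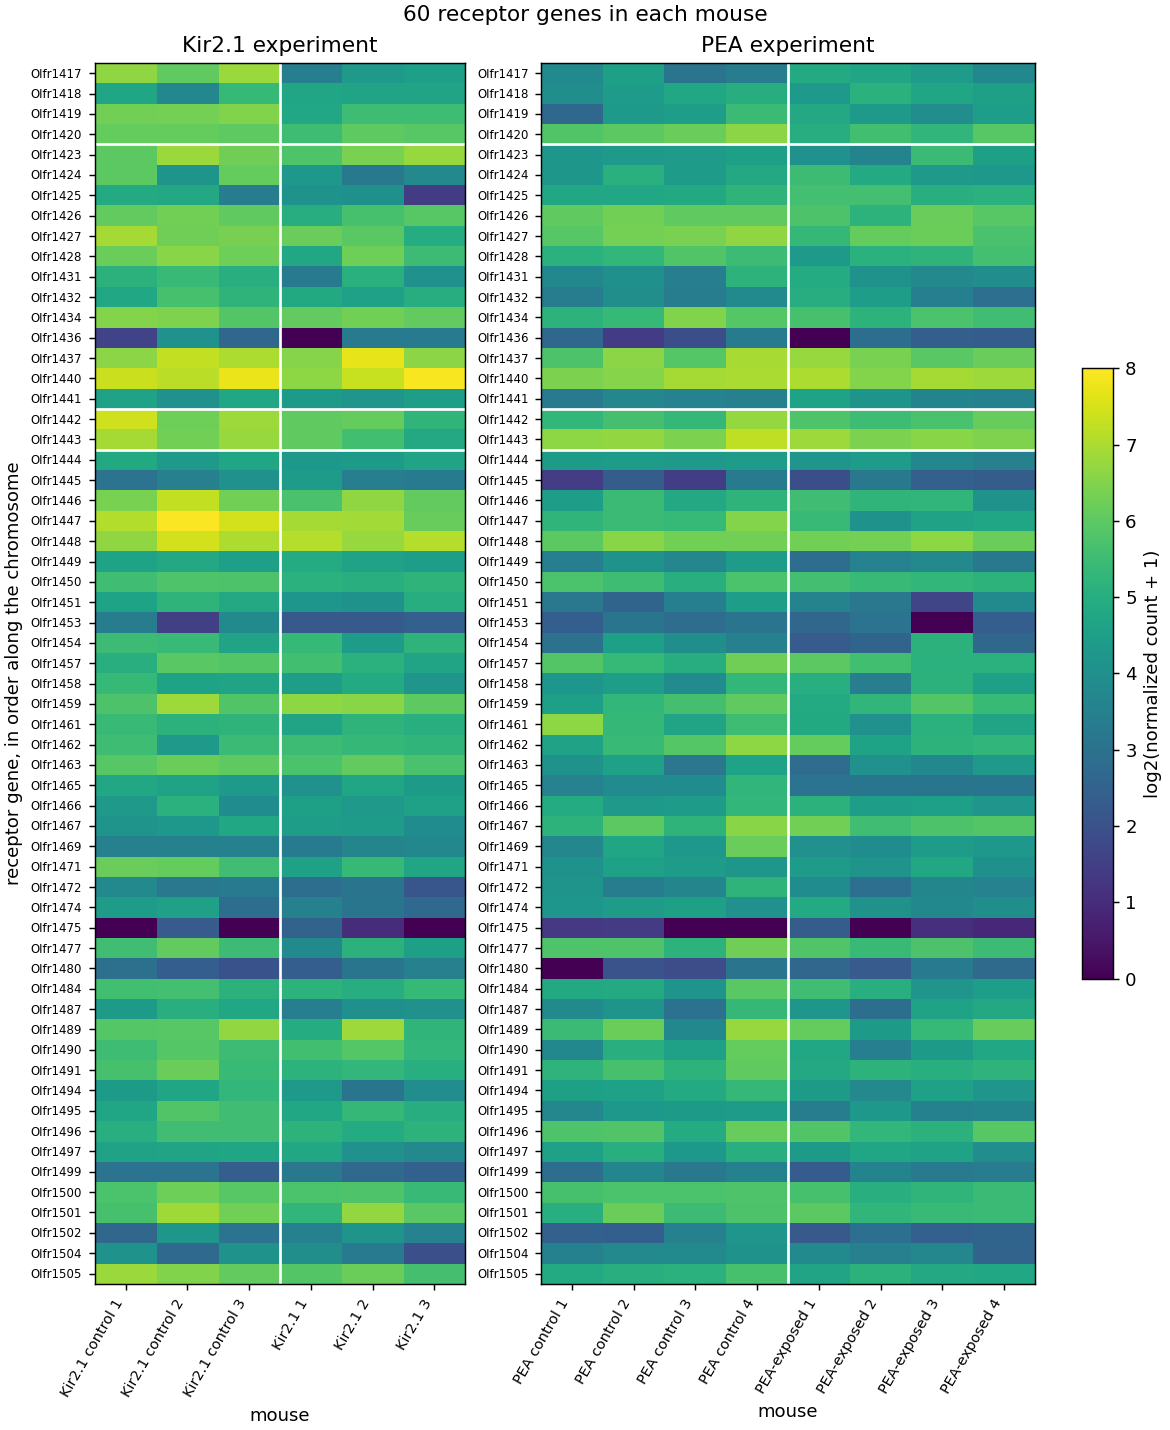
Level of each of the 60 genes (rows, in order along chromosome 19) in each mouse (columns) as log2(normalized count + 1), with white lines between the 4 stretches and between control and treated mice. Most rows keep their colour across mice within an experiment. Rows of low value such as Olfr1436 and Olfr1475 stand out dark, and the column of PEA control 4 is lighter than those of the other PEA controls.

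For the Kir2.1 experiment the question was whether receptor genes of this region differ in tissue whose sensory neurons carry the potassium channel Kir2.1, which holds neurons near rest. Most members were at a lower level in the Kir2.1 mice, as were most other receptor genes, except where each mouse was centred on all receptor genes. Summed over the 60 genes, the controls held 2971, 3360 and 3051 normalized counts and the Kir2.1 mice 2103, 2613 and 2168, so the groups did not overlap. The other 1056 receptor genes summed to between 74052 and 80807 in controls and between 52640 and 59189 in Kir2.1 mice. The members took 3.86 to 3.99% of the receptor sum in controls and 3.49 to 4.23% in Kir2.1 mice, so their share overlapped between groups.

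Of the 60 genes, 54 had a mean of at least 10 normalized counts and were tested with limma over all 19807 genes passing that filter. Olfr1436, Olfr1453, Olfr1472, Olfr1475, Olfr1480 and Olfr1499 were below it. No member passed a Benjamini-Hochberg adjusted p of 0.05, where 0.353% of all genes tested and 2 of the 956 other receptor genes did. The study, with another test of the same mice, reported more genes at that threshold. Odorant receptor genes were among them, all lower. At an unadjusted p under 0.05, 10 members were lower and 0 were higher, compared with 6.2% of all genes lower and 4.93% higher. Among the 956 other receptor genes tested, 251 (26.3%) were lower at that level and 4 were higher. The log2 fold change was below 0 for 47 of the 54 members, against 48.8% of all genes and 84.8% of the other receptors. Its median was -0.36 over the members, -0.46 over the other receptors and 0.01 over all genes. Every Kir2.1 mouse was below every control mouse for 14 of the 54 members (background 9.04%, other receptors 31.8%), and for 0 was every Kir2.1 mouse above (background 7.26%). The count of 10 lower members fell to 6 when Kir2.1 control 2 was left out, the control with the highest member sum. When each mouse was centred on the mean of all receptor genes, which moved every log2 fold change up by 0.485, 22 of 54 members were below 0 and the median turned to 0.13, with 1 member lower and 1 higher at that level.

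**Figure D2:**
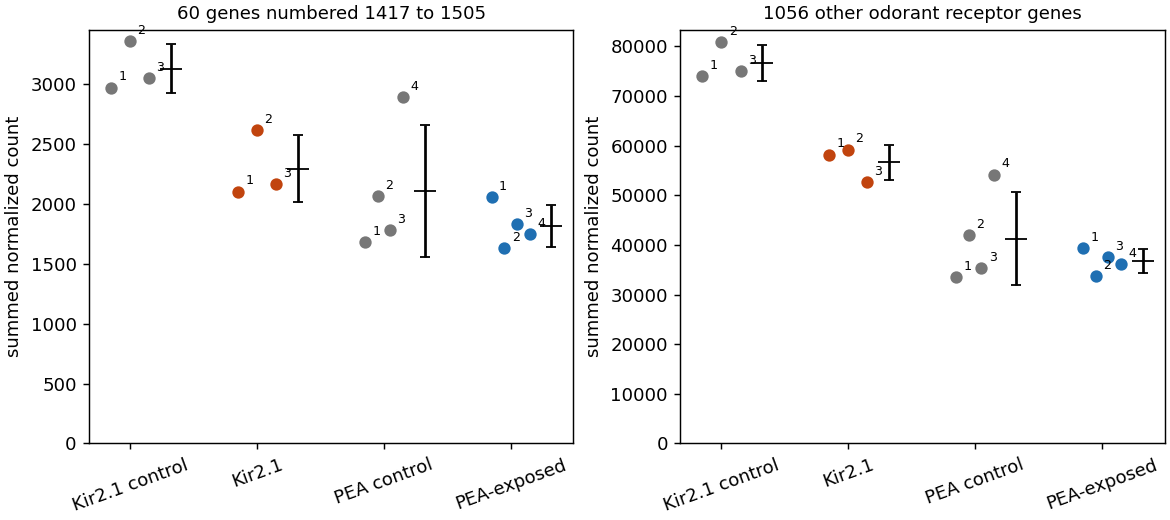
Summed normalized count of the 60 genes (left) and of the other 1056 odorant receptor genes (right) for each mouse, numbered by replicate, with the group mean and SD as black bars. Both sums were lower in all 3 Kir2.1 mice than in all 3 controls, and PEA control 4 was the highest PEA mouse in both.

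Olfr1417 (ENSMUSG00000048292, chr19:11826803-11839219, minus strand) had the smallest p of all members and the largest difference. Its 3 control mice were at 100.4, 65.4 and 110 normalized counts and its Kir2.1 mice at 9.61, 19.2 and 21.7. The groups were far apart, with the highest Kir2.1 value under the lowest control value. The log2 fold change was -2.42 with an SE of 0.37, and limma gave a Benjamini-Hochberg adjusted p of 0.0636. With robust moderation of the variances the adjusted p was 0.0465, and with centring on all receptor genes it was 0.0134, so this gene passed the threshold there. With Omp as a covariate, a gene that itself differed between the groups, the log2 fold change was -0.34 and the adjusted p 0.966. The limma adjusted p was 0.149 with the replicate block, 0.205 with the vomeronasal covariate and 0.136 without a trend. With 1 mouse left out at a time it ran from 0.105 to 0.214. The vomeronasal mean set Kir2.1 control 1 apart, so that covariate acted much like leaving out this mouse (limma adjusted p 0.214). Its near-identical neighbour Olfr1418 did not show this difference, with controls at 25.2, 11.9 and 40 and Kir2.1 mice at 25.6, 24.3 and 24.5.

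Olfr1419 (chr19:11868613-11875106), in the same stretch, had controls at 77.8, 78.8 and 87.7 and Kir2.1 mice at 26.6, 44.8 and 44.8. The controls lay close together and well above the Kir2.1 mice. Its log2 fold change was -1.09 ± 0.26 (SE) and its limma adjusted p 0.187. Olfr1420, the last gene of the first stretch, was at 63.4 to 68.7 in controls and 45.2 to 63.2 in Kir2.1 mice (log2 fold change -0.26).

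The adjacent genes Olfr1442 and Olfr1443 both had Kir2.1 mice below all controls. Olfr1443 (chr19:12678112-12683851) was at 120, 77.8 and 107 in controls and at 65.3, 46.6 and 27.5 in Kir2.1 mice. Olfr1442 (chr19:12670439-12677277) was at 170, 74.7 and 112 in controls and at 64.9, 67.4 and 36.5 in Kir2.1 mice. Olfr1443 overlaps an annotated unprocessed pseudogene on its own strand, so its value is uncertain to that extent. For both, the distance between the lowest control and the highest Kir2.1 mouse was small compared with the range within groups. Their log2 fold changes were -1.18 (SE 0.34) and -1.04 (SE 0.36), and their limma adjusted p values were 0.265 and 0.348.

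Olfr1447 (chr19:12899434-12903743), the most abundant member per kb in these controls, was at 136, 249 and 175 normalized counts in controls and at 120, 117 and 69.2 in Kir2.1 mice. Its neighbour Olfr1446 overlapped between groups, with 77.1 to 152 in controls and 51.6 to 100 in Kir2.1 mice. Olfr1450 (chr19:12950258-12956406) had the least scatter of the 10 genes, with controls at 45.9, 55.1 and 53.7 and Kir2.1 mice at 33.5, 32.1 and 35.5. The log2 fold changes were -0.86 for Olfr1447 and -0.60 for Olfr1450, with limma adjusted p values of 0.342 and 0.360.

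Olfr1471, Olfr1477 and Olfr1487 lie within the fourth stretch and each has close relatives there. Olfr1471 (chr19:13443409-13451527) was at 70.5, 67.4 and 45.3 in controls and at 22.7, 40.4 and 25.9 in Kir2.1 mice. Olfr1477 (chr19:13500546-13506192) was at 45.3, 66.9 and 44.1 in controls and at 12.9, 34.2 and 22.6 in Kir2.1 mice. Olfr1487 (chr19:13617375-13623072) was at 19.3, 31.7 and 26.8 in controls and at 9.76, 15.2 and 15.5 in Kir2.1 mice. Olfr1477 overlaps a receptor pseudogene on its own strand, Olfr1478-ps1. None of the 3 genes overlapped between groups, and their log2 fold changes were -1.03, -1.20 and -0.89. Olfr1424 (chr19:12058624-12062682), by contrast, overlapped, because control 2 was at 16.5 while controls 1 and 3 were at 61.7 and 68.1 and the Kir2.1 mice at 18.2, 8.51 and 12.5. Its log2 fold change was -1.65 with an SE of 0.58. Olfr1425, next to Olfr1424 and 95.1% identical to it, was at 28.9, 27.2 and 9.45 in controls and at 15.8, 15.1 and 1.65 in Kir2.1 mice, the third largest negative difference at -1.21 with an SE of 0.82. That value rested on Kir2.1 mouse 3, without which it was -0.33.

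Only 7 tested members had a log2 fold change above 0. The 3 largest were Olfr1502 at 0.42, Olfr1459 at 0.28 and Olfr1462 at 0.25, each smaller than or close to its SE (0.53, 0.34 and 0.37). With 1 mouse left out at a time they ran from 0.09 to 0.89, from 0.09 to 0.63 and from -0.14 to 0.46. Olfr1459, for example, was at 53.0, 113 and 55.5 in controls and at 99.6, 95 and 63.7 in Kir2.1 mice, where 1 control was above all other mice. Olfr1462 had 1 low control, at 19, beside values of 36.4 to 45.0 in the other 5 mice. For a single gene, the exact permutation test over 3 against 3 mice cannot go below a two-sided p of 0.1.

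**Figure D3:**
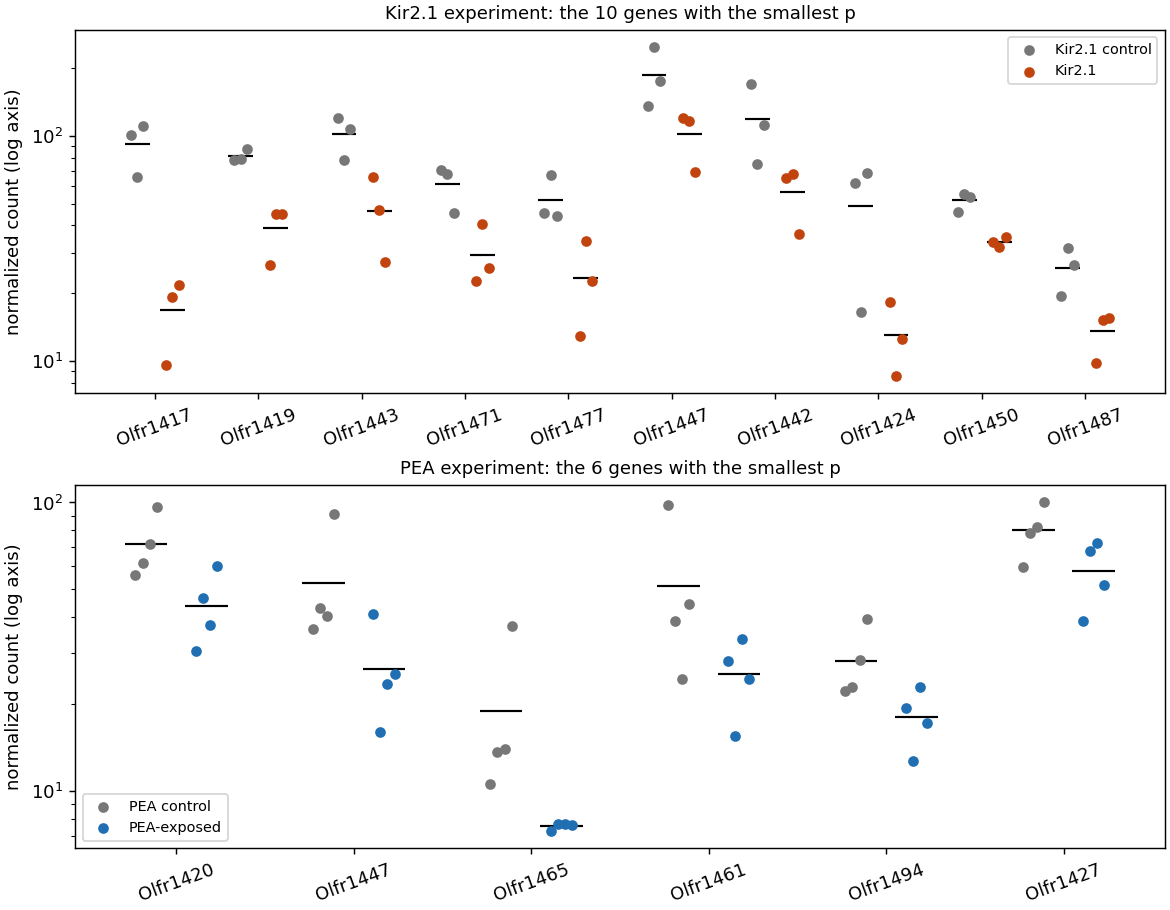
Normalized count (log axis) of the members with the smallest p, 10 in the Kir2.1 experiment (top) and 6 in the PEA experiment (bottom), 1 point per mouse with the group mean as a black line. In the top panel all genes but Olfr1424 have every Kir2.1 mouse below every control, and in the bottom panel this holds only for Olfr1465.

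Markers of mature sensory neurons were also lower in the Kir2.1 mice. The sum of Omp, Cnga2, Adcy3, Gnal, Stoml3, Cngb1 and Ano2 ran from 110296 to 124193 in controls and from 80828 to 92436 in Kir2.1 mice, and all 7 were lower at an unadjusted p under 0.05. Omp, which encodes olfactory marker protein, was the only one called, with a log2 fold change of -0.60 (limma adjusted p 0.0466). Sums of the 4 immature neuron markers (53191 to 55897 and 49021 to 64525) and of the 4 sustentacular cell markers overlapped. The 4 blood and immune markers summed to 6026 to 10644 in controls and 11502 to 17324 in Kir2.1 mice, and 3 of the 4 were higher at an unadjusted p under 0.05. The parts of these cell types in the members' levels were not tested. Of the 10 genes for globose basal and dividing cells, horizontal basal cells and motile ciliated cells or the 3 for ensheathing glia, only Dnah5, an axonemal dynein of motile cilia, reached that level, and it was higher in the Kir2.1 mice (0.66). With Foxj1 it summed to 8250 to 10489 in controls and 10948 to 16232 in Kir2.1 mice. With Omp as a covariate, 4 members were lower and 1 was higher at that level, and 37 of 54 were below 0 (median -0.63). Omp did not overlap between the groups, so that fit can hardly tell it from treatment.

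The near-identical genes were also compared as pairs, since a read may fit both partners. Summed, Olfr1417 and Olfr1418 were at 118 ± 37.1 in controls and 41.7 ± 5.74 in Kir2.1 mice (SD, n = 3). The log2 ratio of Olfr1417 to Olfr1418 was 1.92 ± 0.46 in controls and -0.61 ± 0.63 in Kir2.1 mice, so the ratio did not overlap between the groups (exact permutation test, two-sided p = 0.1, the smallest possible with 3 against 3). Olfr1471 and Olfr1474 kept theirs, with log2 ratios of 1.98 ± 0.59 and 1.80 ± 0.63 while their sum was 77.4 ± 22.3 and 37.4 ± 9.15. For Olfr1502 and Olfr1505 the log2 ratio was -3.14 ± 0.97 and -2.17 ± 0.16, and the sums were 98.6 ± 22.4 and 72.1 ± 15.8. In the PEA experiment the mean log2 ratio of Olfr1417 to Olfr1418 was below 0, at -0.83 ± 0.96 in controls and -0.24 ± 0.58 in exposed mice (SD, n = 4). Olfr1417 was still above Olfr1418 in PEA control 2 (22.4 and 20.4) and in exposed mouse 1 (28.8 and 19.2). That experiment used 150-base reads, but also another library type and other mice, and the part of each was not tested. Members that shared more than 10% of their 40-base windows had a median log2 fold change of -0.58 (20 tested) in the Kir2.1 experiment, and the others one of -0.30 (34 tested), although the value was below 0 for 16 of the former and 31 of the latter. In the PEA experiment the order of the medians was the other way, at -0.01 (19 tested) and -0.33 (33 tested).

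**Figure D4:**
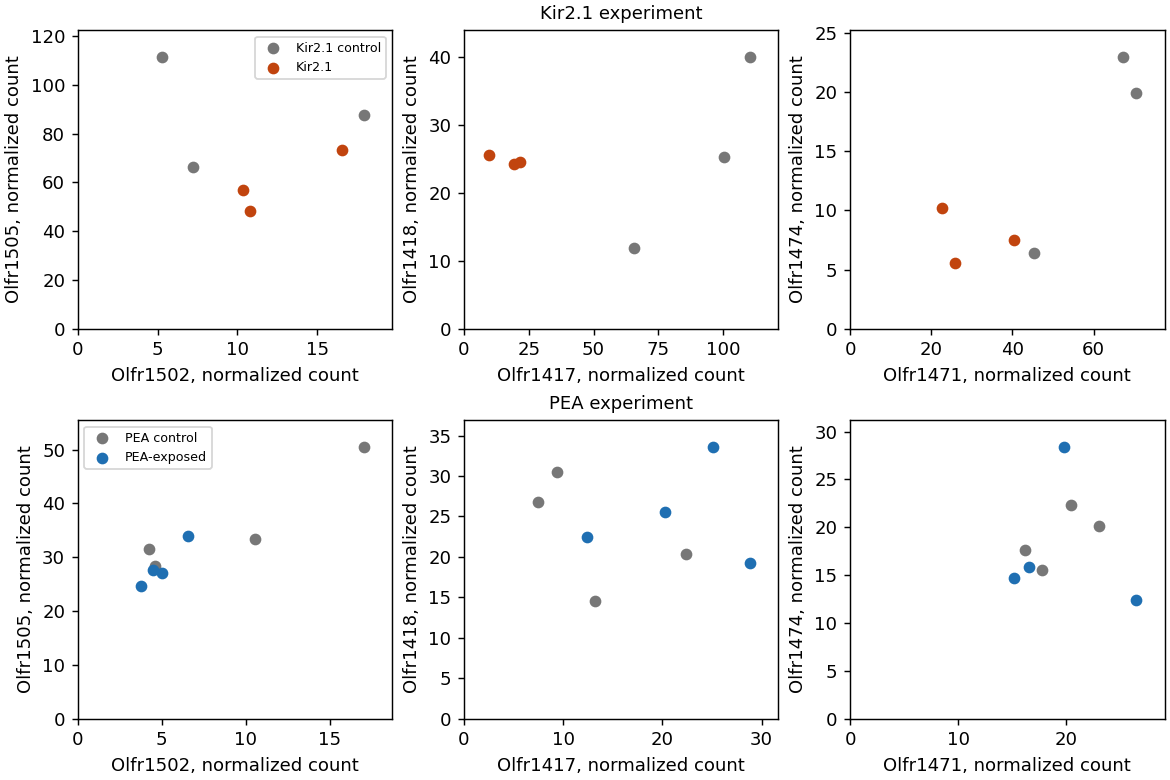
Normalized counts of the 2 genes of each of the 3 most alike pairs, 1 point per mouse, in the Kir2.1 experiment (top row) and the PEA experiment (bottom row), with linear axes from 0. In the top middle panel the Kir2.1 mice lie at low Olfr1417 values but within the range of the controls for Olfr1418.

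The PEA experiment asks whether exposure to an odor in the first days of life moves receptor levels. Here the groups overlapped for nearly all members, and the largest feature was a single control. Summed member counts were 1680, 2068, 1780 and 2894 in controls and 2054, 1630, 1828 and 1748 in exposed mice. Control 4 was above all other mice, and without it the groups covered the same range. The other receptor genes showed the same pattern, with 54181 in control 4 and 33560 to 41973 in the other controls. Control 4 was the highest of the 4 controls for 40 of the 60 members (66.7%), and among other receptor genes tested for 65.5%, but for only 29.4% of all other genes tested. The median difference on the log2 scale between control 4 and the mean of the other controls was 0.61 over the 52 members tested and -0.01 over genes that are no receptors. Omp was at 7326 in control 4 and at 6087 to 7127 in the other controls, and the sum of the 7 mature neuron markers was 29146 against 26892 to 30044. Markers of horizontal basal cells summed to 698 to 845 in controls and 922 to 1103 in exposed mice, with Krt5 and Krt14 higher at an unadjusted p under 0.05, and those of ensheathing glia to 285 to 326 and 240 to 277. Sums of the other marker lists overlapped. Single genes in them also reached that level. Cbr2 of sustentacular cells (0.56), Foxj1 of motile ciliated cells (0.51), Gng8 of immature neurons (0.63) and Omp (0.31) were higher in exposed mice. Gnal of mature neurons (-0.37) was lower. The other immature neuron markers, Gap43, Stmn2 and Dpysl3, were at -0.05, -0.28 and -0.08. Of 120 vomeronasal genes tested, 117 were below 0, 6 of them at that level. The part of these cells in the members' levels was not tested.

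Of the 60 members, 52 were tested among 17322 genes; Olfr1436, Olfr1445, Olfr1451, Olfr1453, Olfr1475, Olfr1480, Olfr1499 and Olfr1502 had means under 10. No member passed a limma adjusted p of 0.05 (background 0.179%, other receptors 2 of 891). Here too the study's own test reported more genes at that threshold. At an unadjusted p under 0.05, 3 members were lower and 0 higher (background 6.04% and 8.93%), compared with 92 lower (10.3%) and 15 higher among 891 other receptors. The log2 fold change was below 0 for 35 of 52 (background 53.5%, other receptors 67.8%), with a median of -0.17 over members, -0.17 over other receptors and -0.02 over all genes. Every exposed mouse was below every control for 1 member (background 3.86%) and above for 0 (background 5.46%). Without control 4, 0 members were lower at that level, 26 of 51 had a log2 fold change below 0, and the median was -0.02. One of the 3 lower members, Olfr1465, fell under the filter there and was no longer tested. Leaving out some other mice moved the split the other way, to 48 of 53 below 0 without control 1 and 42 of 52 without exposed mouse 1. It was 33 of 53 without control 2 and 35 of 53 without exposed mouse 2. With centring on all receptor genes, 27 of 52 were below 0. The count of 3 became 5 without control 1 and 6 without exposed mouse 3. It became 9, with 1 higher, when the vomeronasal receptor mean was a covariate.

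The 3 members under that level were Olfr1420, Olfr1447 and Olfr1465. Olfr1420 (chr19:11886565-11898079) was at 56.2, 61.9, 71.7 and 96.6 in controls and at 30.6, 46.5, 37.5 and 60.1 in exposed mice. The groups overlapped in 1 exposed mouse, and the log2 fold change was -0.71 ± 0.25 (SE; limma adjusted p 0.235). Olfr1447 was at 36.5, 42.9, 40.3 and 91.4 in controls and at 41.1, 16.0, 23.5 and 25.5 in exposed mice. Control 4 was far above every other mouse. Its log2 fold change was -0.94 ± 0.35 (limma adjusted p 0.262). Olfr1465 (chr19:13312768-13315541) was at 10.6, 13.7, 13.9 and 37.3 in controls and at 7.24, 7.65, 7.67 and 7.65 in exposed mice. It was the only tested member with no overlap, and its log2 fold change was -1.05 ± 0.41 (limma adjusted p 0.277). All exposed mice were under the filter of 10, which the gene passed only through its controls and above all through control 4. Without control 4 its mean fell below 10 and it had no test, while controls 1 to 3 still lay above every exposed mouse. For a single gene, the exact permutation test over 4 against 4 mice cannot go below a two-sided p of 0.0286.

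The next members by p were Olfr1461, Olfr1494 and Olfr1427. Olfr1461 was at 98.4, 38.8, 24.4 and 44.5 in controls and at 28.2, 15.5, 33.6 and 24.4 in exposed mice, and here control 1 and not control 4 was the highest. Its log2 fold change of -0.86 was -0.49 without control 1. Olfr1494 was at 22.2 to 39.5 in controls and 12.7 to 23.0 in exposed mice, and Olfr1427 at 59.6 to 101 and 38.9 to 72.3. Both overlapped. The largest positive log2 fold changes were 0.73 for Olfr1417, 0.47 for Olfr1441 and 0.44 for Olfr1425. Olfr1417 was at 13.2, 22.4, 7.48 and 9.43 in controls and at 28.8, 25.1, 20.2 and 12.4 in exposed mice, with overlap and a limma adjusted p of 0.422. Olfr1425 was at 26.3 to 35.6 in controls and at 31.8 to 48.3 in exposed mice.

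By position, the Kir2.1 differences were spread over the whole region. The log2 fold change was below 0 for 3 of 4, 12 of 12, 2 of 2 and 30 of 36 tested genes in the 4 stretches, with medians of -0.68, -0.52, -1.11 and -0.31. Its Spearman correlation with position was 0.124. In the PEA experiment it was below 0 for 1 of 4, 4 of 12, 1 of 2 and 29 of 34 genes, with medians of 0.15, 0.06, -0.07 and -0.32, and the correlation with position was -0.387. The median log2 difference of control 4 from the other controls was 0.60, 0.26, 0.975 and 0.68 in the 4 stretches. The value of 0.975 rests on only 2 genes, Olfr1442 and Olfr1443. The part of control 4 in the differences between stretches was not tested beyond leaving this mouse out. Without control 4, 1 of 4, 4 of 12, 1 of 2 and 20 of 33 genes were below 0, with medians of 0.42, 0.17, 0.17 and -0.07. Between the members lie 13 coding genes that are not receptors. In the Kir2.1 experiment 4 of the 9 tested were below 0, 0 were lower and 1 was higher at an unadjusted p under 0.05, with a median of 0.01. In the PEA experiment 7 of 8 were below 0, 2 of them at that level.

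**Figure D5:**
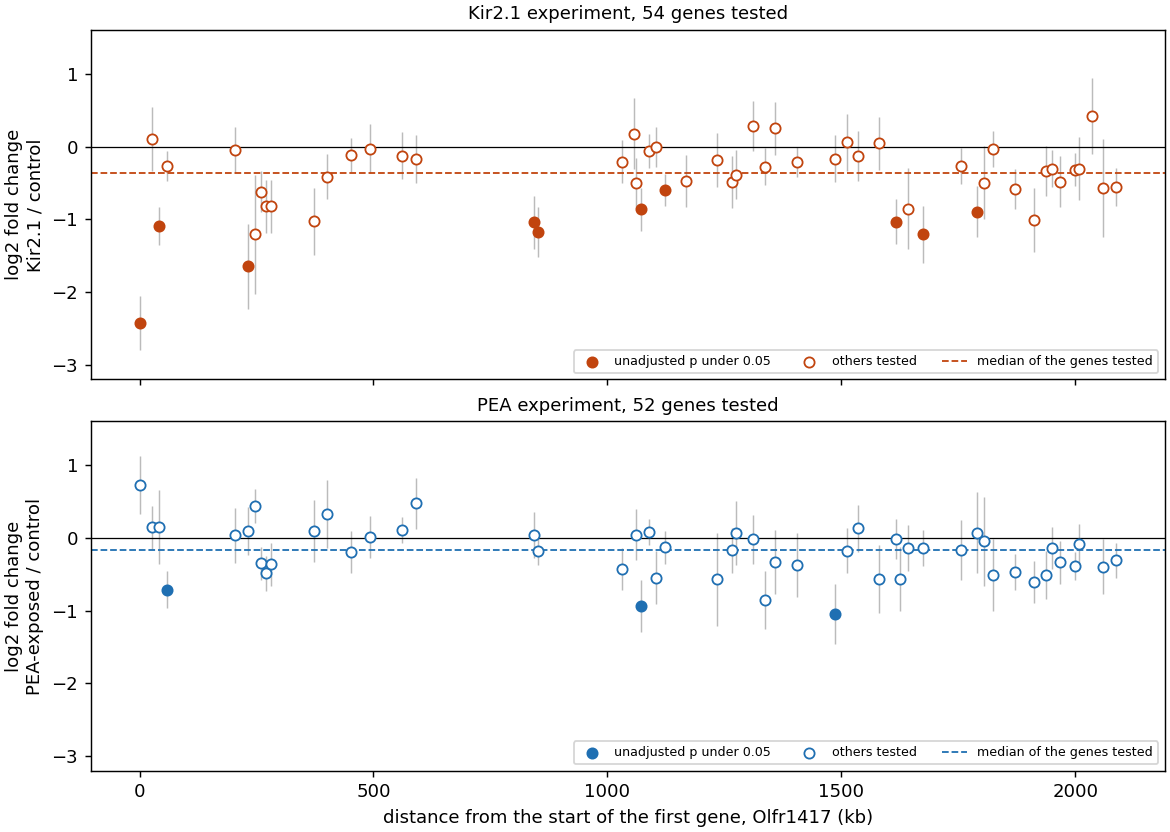
Log2 fold change with its SE for each tested member against distance from the start of Olfr1417 in kb, for the Kir2.1 experiment (top, 54 genes) and the PEA experiment (bottom, 52 genes). Filled points have an unadjusted p under 0.05 and the dashed line is the median, at -0.36 in the top panel, which turns to 0.13 with centring on all receptor genes, and at -0.17 in the bottom panel.

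The 2 experiments share no mice, so their values can be set side by side for the 51 members tested in both. The log2 fold change was below 0 in both for 30 members, in Kir2.1 mice only for 16 and in PEA-exposed mice only for 4, and it was above 0 in both for 1. Most members tested were below 0 in each experiment alone (47 of 54 and 35 of 52), so the count of 30 does not show agreement. Across the 51 members the log2 fold changes had a Spearman correlation of -0.183 and a Pearson correlation of -0.318. The same count was not made for the other receptor genes. Olfr1447 was among the genes with the smallest p in both, at -0.86 and -0.94 (-0.64 without PEA control 4), and was called in neither. Olfr1417 and Olfr1425 were among the 3 largest negative values in the Kir2.1 experiment, at -2.42 and -1.21 (-0.33 for Olfr1425 without Kir2.1 mouse 3), and among the 3 largest positive ones in the PEA experiment, at 0.73 and 0.44. Olfr1443, with -1.18 in Kir2.1 mice, was at -0.18 in exposed mice, where its controls were at 98.1, 104, 85.4 and 151 and its exposed mice at 112, 85.5, 94.6 and 87.0. Olfr1471 and Olfr1477 were at -0.01 and -0.14 there.

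Genes that act with the receptors were compared on the same scale, without receptor centring. In the Kir2.1 experiment all 10 transduction genes had a log2 fold change below 0, with a median of -0.39, 9 of them at an unadjusted p under 0.05. Omp was called, and Adcy3, the adenylyl cyclase of the cilia, came next at -0.54 (limma adjusted p 0.0720). The receptor export genes Rtp1, Rtp2 and Reep1, whose proteins carry receptors to the cell surface, were at -0.38, -0.45 and -0.29, each with an unadjusted p under 0.05 and none called. Rtp2 had the smallest adjusted p of these, 0.0531. Of 13 regulators of receptor choice, among them Lhx2, Ldb1, the Ebf genes, Emx2 and Kdm1a, 0 were called and 0 reached an unadjusted p under 0.05, with a median of -0.07. In the PEA experiment 0 of these 26 genes were called. At an unadjusted p under 0.05, Gnal (-0.37) and Ric8b (-0.25), Emx2 (-0.41) and Cbx5 (-0.29) were lower there and Omp (0.31) and Ldb1 (0.36) higher.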

How the data were processed

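RNA of the olfactory epithelium was read in 14 mice, 3 against 3 and 4 against 4. Per the methods of the study, poly-A RNA was sequenced without strand in 40-base reads for Kir2.1 and, after removal of ribosomal RNA, with strand in 150-base reads for PEA. The authors estimated transcript abundance with Salmon 1.3.0 on GRCm38 (1 strand setting is given for all samples), summed it per gene and normalized each experiment with DESeq2 1.30.0, so the deposited values are a normalized signal per gene rather than whole reads. If the commonest value above 0 in a mouse is taken as 1 read, values within 0.001 of a whole multiple made up 2.16 to 8.79% of all values per mouse, so whole reads were not recovered and library depth is unknown. Tests that need counts were therefore not run.

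Genes with a mean of at least 10 in an experiment were kept, 1 was added, and log2 values were tested in each experiment by limma 3.58.1 (R 4.3.3), using moderated variances with a trend and no covariate. P-values were adjusted over all genes tested after Benjamini-Hochberg. All fold changes are on the log2(value + 1) scale, which understates those of low genes. The labels do not say that replicates came from separate litters, so p-values measure the spread between these mice. The test was checked on simulated data. Genes named are the 10 (Kir2.1) and 6 (PEA) with the smallest p, the 3 largest differences in each direction, the 5 highest per kb of exon in each experiment and the 3 most alike coding pairs. Olfr1445, Olfr1451, Olfr1453, Olfr1472, Olfr1475, Olfr1480, Olfr1499 and Olfr1436 are named for falling under the filter and Olfr1426 and Olfr1454 as outliers. The members and gene lists were chosen with earlier results of these data known. The value of 1 marker gene is not reported here. Alternatives were pseudocounts of 0.5 and 5, no filter or a mean of 50, no trend, robust moderation, quantile normalization, 2 centrings, covariates, the replicate block and each mouse left out. Exon lengths, coding sequences and positions came from GENCODE vM21. Coding identity and shared windows were computed with Python 3.11.15 and Biopython 1.88, and figures were drawn with matplotlib 3.10.9.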

Additional observations from a re-analysis of the deposited data

Results flagged for a closer look

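In each PEA group of 4 mice the highest and lowest values were checked for standing apart from the other 3 (by Dixon's criterion for the gap over the range), for 60 genes and their sum in both groups, 122 checks in all. Chance flags about 1 in 20 groups, and 6 were flagged here. In 3 of these the mouse was PEA control 4, which was the highest control for most receptor genes. In Olfr1442 it was at 105 normalized counts while the other controls were at 38.6 to 49.1. In Olfr1447 it was at 91.4 against 36.5 to 42.9, and in Olfr1465 at 37.3 against 10.6 to 13.9. PEA control 2 was at 77.1 in Olfr1426, where the other controls lay between 65.2 and 65.5. PEA-exposed mouse 3 was at 34.1 in Olfr1454, where the others were at 4.02 to 5.35. PEA-exposed mouse 1 was at 7.24 in Olfr1465 while the others were at 7.65 to 7.67, a gap of under 1 normalized count. Groups of 3 mice were not checked.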

How the results depend on the processing

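In the Kir2.1 experiment the count of members called was 0, and it was 1 with robust moderation, with centring on all odorant receptor genes and at an adjusted p under 0.10; the gene was Olfr1417. The 10 members lower at an unadjusted p under 0.05 became 5 with a mean of at least 50 (21 tested), 1 with receptor centring and 4 with the Omp covariate, and 6 to 11 with 1 mouse left out. The 0 higher became 1 with receptor centring and 1 with the Omp covariate. The median of -0.36 was -0.50 with a mean of at least 50, 0.13 with receptor centring and -0.63 with the Omp covariate, and ran from -0.47 to -0.31 with 1 mouse left out. Of the named members 5 were lower with a mean of at least 50, since fewer were tested. Singly, with the Omp covariate, Olfr1424 turned to 0.30, Olfr1459 to -1.64 and Olfr1502 to -0.70. Olfr1417 moved to -0.34, Olfr1419 to -0.04, Olfr1487 to -0.06 and Olfr1450 to -0.26. Olfr1425 moved to -8.26, Olfr1443 to -2.51, Olfr1471 to -2.38, Olfr1442 to -2.33, Olfr1447 to -2.24 and Olfr1462 to 1.02. Omp itself was at 31853 to 36226 in controls and 21062 to 23516 in Kir2.1 mice. The fit can hardly tell such a covariate from treatment, so values with it are unstable and are no sizes of change. Olfr1425 was -0.33 without Kir2.1 mouse 3, and Olfr1462 ran from -0.14 to 0.46 with 1 mouse left out.

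In the PEA experiment 0 members were called under every alternative tried. The 3 lower became 1 with a mean of at least 50 (12 tested), 5 without a trend, 6 with median centring and 9 with the vomeronasal covariate, and 0 to 6 with 1 mouse left out. The 0 higher became 1 without a trend, with receptor centring and with the vomeronasal covariate, and 0 to 1 with 1 mouse left out. Of the named members 2 were lower with a mean of at least 50. The median of -0.17 ran from -0.29 to -0.02 with 1 mouse left out. Apart from fewer genes tested at a mean of 50, the cause of these differences was not tested.

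With the replicate number as a block, 13 members were lower in the Kir2.1 experiment and 4 in the PEA experiment, and 0 were called. The correlations of same-numbered mice ran from -0.06 to 0.16 and from -0.05 to 0.14. With groups of 3 or 4 mice, such values cannot show whether the numbers pair the mice. The depth is unknown, so no member under the filter can be called unexpressed.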
